A study of Homo sapiens with 12 samples.

Results

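The genes described here encode the machinery by which vesicles dock at and fuse with the plasma membrane, together with adhesion proteins that hold the 2 sides of a synapse to each other. They were taken by name from the deposited count table as protein-coding genes of 11 families: synaptotagmins (SYT, 17 gene IDs), syntaxins with a numeric name (STX, 14), vesicle-associated membrane proteins (VAMP, 8), syntaxin-binding proteins (STXBP, 6), neuroligins (NLGN, 5), UNC13 proteins (4), SNAP-23, SNAP-25, SNAP-29 and SNAP-47 (4), complexins (CPLX, 4), RAB3 GTPases (4), neurexins (NRXN, 3) and the phosphatase-like granule proteins PTPRN and PTPRN2 (2). This gave 71 gene IDs for 70 symbols, since VAMP7 has a second ID with no count, of 58288 gene IDs in the table, 19806 of them protein-coding. The families were chosen from earlier results of these data, in which SYT13, UNC13A and PTPRN stood out after FLCN knockdown. Values of those 3 genes are therefore given as a description, with no test, in every comparison.

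In regulated exocytosis a vesicle SNARE of the VAMP family zips together with syntaxin and SNAP proteins of the target membrane, and syntaxin-binding (Munc18-type) proteins chaperone the assembly. UNC13 proteins prime the vesicle, RAB3 GTPases tether it, complexins clamp the partly zipped complex, and calcium-binding synaptotagmins trigger the final step. Presynaptic neurexins bind postsynaptic neuroligins across the synaptic cleft. Many SNARE genes are used by every cell for traffic between organelles, whereas several synaptotagmins, complexins, neurexins and PTPRN are known mainly from neurons and endocrine cells.

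HK2 is an established line of cells from the human renal proximal tubule, grown here in DMEM with fetal bovine serum. Polyadenylated RNA was sequenced from 3 libraries, labelled as biological replicates, of each of 4 groups, that is, from cells with and without FLCN knockdown after short-term and after long-term culture. FLCN encodes folliculin, a regulator of nutrient signalling at the lysosome that is mutated in Birt-Hogg-Dubé syndrome. Nontarget cells stably carried a nontargeting shRNA and knockdown cells a stable FLCN shRNA, and cells were harvested below 30 passages (short-term) or, by their labels, after 120 (long-term), for which the study's methods give a lower limit. Knockdown lines are clones, and the clone behind each library is not named in the sources. What the shRNA did and what is particular to a clone therefore cannot be told apart.

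Libraries held 5825779 to 8991051 counts, and the 71 IDs took 0.128% to 0.165% of them. FLCN was at 15.3 ± 2.25 CPM (counts scaled to the library's total after adjustment by TMM factors, mean ± SD, n = 3 here and below) in short-term nontarget and 6.06 ± 0.469 in short-term knockdown libraries, and at 11.3 ± 1.23 against 6.99 ± 0.868 in the long-term groups. Among 15 proximal tubule markers, PAX8, GGT1, MME, SLC5A2 and SLC3A1 passed the low-count filter, while the defining genes LRP2, HNF4A, SLC22A6 and SLC22A8 had no count in any library. Of 16 neuron and neuroendocrine markers, RBFOX3, DCX, ELAVL4, STMN2 and INSM1 had no count in any library, and the summed level of the 16 was 995 to 1087 CPM in short-term nontarget, 945 to 1034 in short-term knockdown, 872 to 1045 in long-term nontarget and 789 to 868 CPM in long-term knockdown libraries, most of it UCHL1.

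HK2 cells expressed the general SNARE machinery and little of the neuronal part. At least 1 count was found for 60 of the 71 IDs, and 45 passed the filter on low counts, which a gene can pass through 1 group in which it is high. Without the 3 genes that brought up the set, 42 were tested. All 4 SNAP genes, all 6 STXBP genes and 13 of 14 syntaxins passed, but only 6 of 17 synaptotagmins, 1 of 4 complexins, 1 of 3 neurexins and 2 of 5 neuroligins. The classical fast synaptotagmin SYT2, the complexins CPLX2, CPLX3 and CPLX4, the primer UNC13C known from the cerebellum, and NLGN4X were at 1 count or fewer over all 12 libraries, whereas SYT1, the calcium sensor of fast transmitter release, was at 12.8 ± 1.50 CPM in short-term nontarget cells.

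Levels between genes were compared as CPM per kilobase of merged exons. In short-term nontarget cells the leading genes were VAMP3 (53.4 ± 1.24), a SNARE of recycling endosomes, and VAMP7 (49.7 ± 1.35), a SNARE of late endosomes and lysosomes, and all their libraries were above those of the Golgi syntaxin STX5, which followed at 20.4 CPM per kilobase. RAB3B led the RAB3 family (15.2), SNAP23 the SNAP family (13.2), NLGN2 the neuroligins (8.41), SYT11 the synaptotagmins (5.82), STXBP3 the syntaxin-binding proteins (5.81), UNC13D, which primes lytic granules of immune cells, the UNC13 family (3.65), CPLX1 the complexins (3.09) and NRXN3 the neurexins (0.867). Over short-term knockdown, long-term nontarget and long-term knockdown cells, in that order, VAMP3 was at 50.3, 51.9 and 44.8, STX5 at 22.3, 22.6 and 25.4, SNAP23 at 12.7, 13.6 and 12.9, and STXBP3 at 5.36, 5.40 and 5.30 CPM per kilobase. In the same order UNC13D was at 5.89, 4.10 and 5.62, NLGN2 at 7.48, 10.8 and 14.2, and RAB3B at 13.8, 14.1 and 4.72. SYT11 was at 6.07, 5.82 and 1.99, CPLX1 at 2.31, 4.57 and 1.17, and NRXN3 at 0.789, 0.826 and 0.00364.

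**Figure D1:**
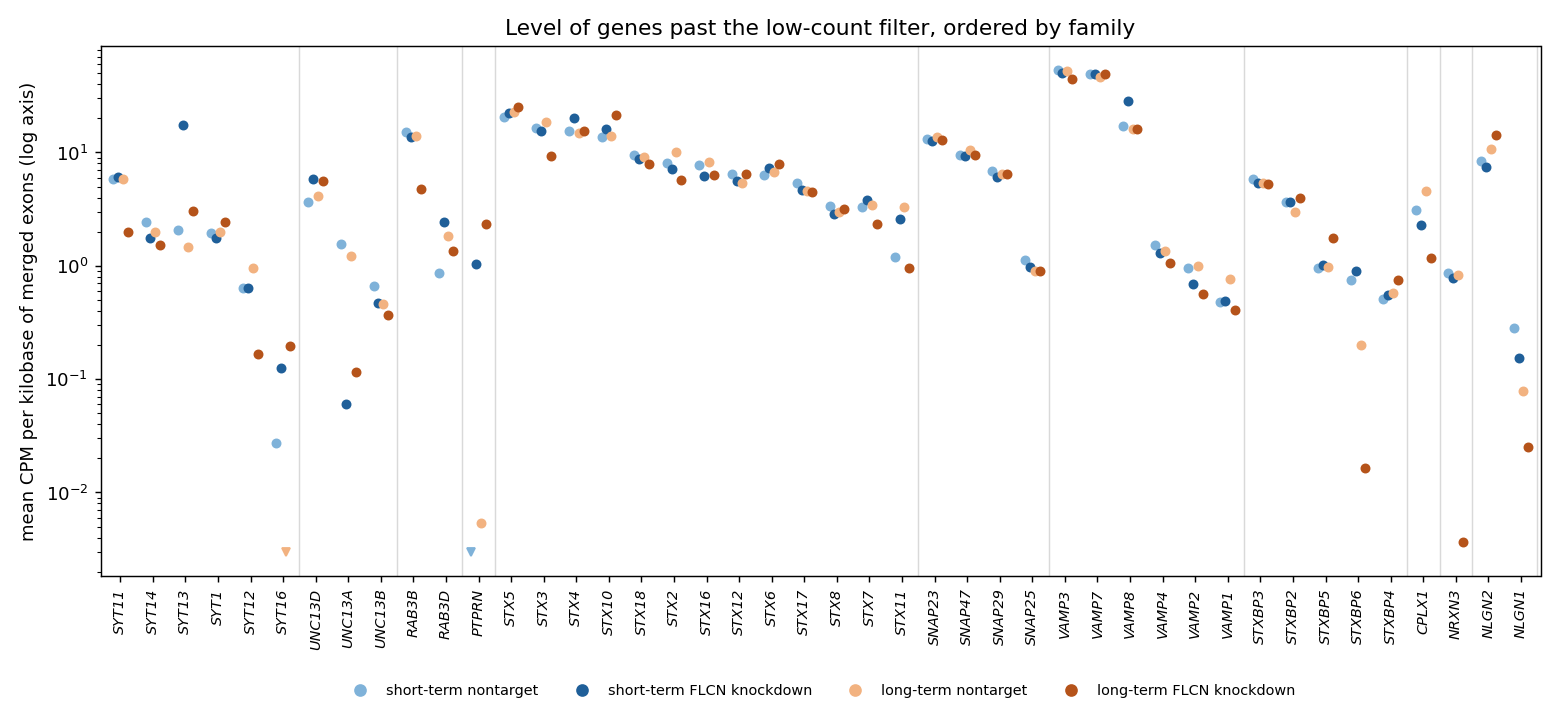
Mean level of genes past the low-count filter in CPM per kilobase of merged exons (log axis), ordered by family and by level in short-term nontarget cells, with 1 point for each of the 4 groups (3 libraries each); triangles at the lower edge mark means below 0.003. The 4 points of SNAP23 or VAMP7 lie close together, while those of SYT13, UNC13A, PTPRN, SYT16, STXBP6 and NRXN3 spread over a wide range.

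Of the 3 genes that brought up the set, SYT13 encodes an unusual synaptotagmin that does not bind calcium through its C2 domains. Its 3 short-term nontarget libraries were at 9.02, 9.26 and 15.1 CPM and the short-term knockdown libraries at 90.6, 96.9 and 98.0 CPM, with no overlap, a fitted log2 fold change of 3.10. In the long-term groups SYT13 was at 8.17, 7.90 and 7.89 CPM without and 16.6, 15.3 and 17.6 CPM with knockdown, a log2 fold change of 1.04. SYT13 was thus the leading synaptotagmin per kilobase in short-term knockdown cells (17.6), and its level in long-term knockdown cells lay between that and the nontarget levels. SYT13 lies at chr11:45240301-45286319 on the minus strand (GRCh38, GENCODE 29) and shares exon bases with AC103681.1. Since the library kit does not mark strand, reads from bases that genes share cannot be told apart.

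UNC13A encodes the main vesicle-priming factor of neurons. Counts of UNC13A were 126, 118 and 106 in short-term nontarget libraries and 5, 6 and 3 in short-term knockdown libraries, or 17.3 ± 0.635 against 0.680 ± 0.178 CPM. In the long-term groups the counts were 85, 81 and 132 without and 10, 14 and 4 with knockdown, or 13.7 ± 3.01 against 1.30 ± 0.699 CPM. Each knockdown library was below each nontarget library at both times, with log2 fold changes of -4.62 and -3.37. UNC13B was at 11.9 and 8.45 CPM and UNC13D at 28.3 and 45.7 CPM in short-term nontarget and knockdown cells, with edgeR adjusted p of 0.128 and 0.0751. Long-term neither passed the threshold without the replicate number as a block, and with it UNC13D did (log2 fold change 0.45, adjusted p 0.158 without and 0.0154 with the block). Short-term, where the numbers did not pair the libraries, the block gave UNC13D a log2 fold change of 0.63 (adjusted p 0.00416). The 40 tested genes nearest to UNC13D had median log2 fold changes of 0.02 short-term and 0.48 long-term. What its region contributed was not tested.

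PTPRN encodes IA-2, a membrane protein of dense core granules and an autoantigen of type 1 diabetes. The short-term nontarget libraries had 0, 0 and 0 counts and the short-term knockdown libraries 45, 48 and 73, at least 55.0-fold higher when the nontarget group is set to a floor of 3 counts. The long-term nontarget libraries had 1, 0 and 0 counts and the long-term knockdown libraries 192, 94 and 128, a 420-fold ratio. This ratio rests on 1 nontarget count and carries no interval, since the gene was chosen on its values. PTPRN was therefore at or near 0 in all 6 nontarget libraries and counted in all 6 knockdown libraries, at 8.54 ± 3.85 CPM short-term and 19.2 ± 4.71 CPM long-term. Its paralog PTPRN2 had 2 counts in short-term knockdown and 0 in the other 3 groups. The gene lies at chr2:219289623-219309648 on the minus strand and shares exon bases with AC114803.1.

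Sequence around the start sites of members is shown for the genes that were highest or lowest in knockdown cells and that RefSeq (GRCh38.p14) provides. A start-site window of 300 bases, 250 before the start and 50 from it on, was given for 56 of the 70 symbols in 87 windows, and SYT13, SYT12 and CPLX1 had none. Both strands were searched for the E-box CACGTG, bound by basic helix-loop-helix factors such as TFE3 and TFEB, for its extension TCACGTGA, which contains it, and for TCAGCACC and GGACAGCG, the left and right parts of the RE1 element bound by the repressor REST. The UNC13A stretch upstream of every annotated exon (chr19:17688366-17688604, minus strand) is printed with its E-box in capitals, and the 30 bases across the start (chr19:17688338-17688367) with both RE1 parts in capitals, read on the opposite strand. The NRXN3 stretch (chr14:78170123-78170372, plus strand) lies before the first annotated start and held none of the 4 motifs. For PTPRN (chr2:219309476-219309505, minus strand), 30 bases around its RE1 left part are printed.
UNC13A upstream: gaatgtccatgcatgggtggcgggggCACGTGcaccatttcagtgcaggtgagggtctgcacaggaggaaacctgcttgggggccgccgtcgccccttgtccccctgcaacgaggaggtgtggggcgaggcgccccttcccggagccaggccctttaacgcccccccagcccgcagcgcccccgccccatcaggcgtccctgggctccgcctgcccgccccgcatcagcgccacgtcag
UNC13A start: aggCGCTGTCCgcgcccccGGTGCTGAacc
NRXN3 upstream: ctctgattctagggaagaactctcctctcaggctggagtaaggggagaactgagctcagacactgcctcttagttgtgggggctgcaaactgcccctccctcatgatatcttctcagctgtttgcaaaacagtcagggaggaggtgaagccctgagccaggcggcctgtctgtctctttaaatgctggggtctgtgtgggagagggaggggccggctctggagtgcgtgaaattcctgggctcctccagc
PTPRN RE1 left part: tggaggtgtcgTCAGCACCcgcctgcggtt

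The RE1 left part was found in windows of 5 members (PTPRN, STX6, SYT3, SYT4 and UNC13A), that is in 5.75% of the members' 87 windows and in 1.67% of all 35116 windows, and the right part in that of 1 member (UNC13A), or 1.15% of the members' windows and 1.63% of all windows. Of these members, PTPRN was higher and UNC13A lower in knockdown than in nontarget libraries. The E-box was found in windows of 10 members (CPLX3, SNAP29, STX18, STX2, STX4, STX6, STXBP2, SYT14, SYT6 and UNC13A), that is in 12.6% of the members' windows and in 7.26% of all windows, and its extension in those of STX4 and STX6, or 2.30% of the members' windows and 0.980% of all windows. The extension in STX4 (chr16:31033284-31033313, plus strand) and STX6 (chr1:181022998-181023027, minus strand) is printed in capitals with 11 bases on either side.
STX4: gaccgggctggTCACGTGAcgcggtggggg
STX6: atatgccctggTCACGTGAgcggggtgcgg
STX4 rose in short-term knockdown, as given below, and STX6, a syntaxin of the trans-Golgi network, was at 40.7 and 47.5 CPM in short-term nontarget and knockdown cells (edgeR adjusted p 0.257). A match is a description of letters, and binding was not measured.

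Short-term FLCN knockdown was followed by higher counts of a few members and left most others within the spread. With an edgeR adjusted p below 0.05 over all 13959 genes tested, 5 of the 42 tested members were higher, or 11.9% against 5.62% of all genes, and 0 were lower, against 4.71%. At an unadjusted p below 0.05 there were 6 higher and 4 lower, and DESeq2 called 6 higher and 0 lower. Shares of all genes are given for the edgeR adjusted p alone, so these counts cannot be set against them. The 5 were RAB3D, SYT16, STX11, VAMP8 and STX4. SYT16 passed the low-count filter through knockdown libraries alone, and without it and NLGN1, the neuroligin described below that likewise passed through the groups where it is high, 4 of 40 were higher (10%). How many of the 5 passed rested on single libraries: 1 did without nontarget replicate 1, knockdown replicate 1 or knockdown replicate 2, and 3 did without nontarget replicate 2 or 3. Without knockdown replicate 2 UNC13D also passed (edgeR adjusted p 0.0286). The median log2 fold change of the 42 was -0.07, and that of all genes was near 0.

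RAB3D, a RAB3 GTPase of secretory granules in exocrine and other non-neuronal cells, was at 3.55, 4.10 and 3.77 CPM in short-term nontarget libraries and at 9.49, 12 and 11 CPM in short-term knockdown libraries. The groups did not overlap, and RAB3D rose by a log2 fold change of 1.50 (SE 0.21, edgeR adjusted p 0.000168). Its exons share bases with those of 4 other genes, among them TMEM205 and CCDC159. The long-term values were 6.16, 8.98 and 9.32 CPM without and 6.47, 6.31 and 5.26 CPM with knockdown, which overlapped (adjusted p 0.123).

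SYT16, a synaptotagmin thought not to bind calcium, was counted 1, 0 and 7 times in short-term nontarget and 11, 10 and 16 times in short-term knockdown libraries. SYT16 reached the low-count filter's level in 1 short-term and 3 long-term knockdown libraries and in no nontarget library, so it could be tested only because it was high with knockdown, and its p-values are no independent support for a difference. The fit gave a short-term log2 fold change of 2.16 (SE 0.66, edgeR adjusted p 0.0441), a call that was lost when any 1 of 5 of the 6 libraries was left out, with adjusted p of 0.192 and 0.162 without nontarget replicates 1 and 2 and of 0.0626, 0.0624 and 0.142 without knockdown replicates 1, 2 and 3. Long-term the separation was wider, with 1, 0 and 0 counts in nontarget and 25, 22 and 17 in knockdown libraries. The ratio of the long-term groups was 64.9 (95% counting interval 11.2 to 2601), and the fitted log2 fold change of 5.56 (SE 0.86, adjusted p 9.23e-05) depends on the prior count. SYT16 lies at chr14:61811974-62112550 on the plus strand and shares exon bases with AL390816.1 and AL390816.2.

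STX11, a syntaxin without a membrane-spanning segment that serves lytic granule release in immune cells, was at 2.60, 3.19 and 1.10 CPM in short-term nontarget and 5.06, 4.97 and 4.78 CPM in short-term knockdown libraries. All knockdown values were above all nontarget values, and STX11 rose by a log2 fold change of 1.09 (SE 0.31, edgeR adjusted p 0.0297). The adjusted p was 0.0701 and 0.124 without nontarget replicates 1 and 3 and 0.0834 and 0.0683 without knockdown replicates 1 and 2. Long-term the order was the opposite: 5.76, 6.35 and 6.99 CPM without and 1.96, 1.17 and 2.37 CPM with knockdown, and STX11 fell (log2 fold change -1.79, SE 0.31, adjusted p 0.000236).

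VAMP8, the endosomal and lysosomal SNARE that also serves granule release in many secretory cells, rose short-term by a log2 fold change of 0.72, and STX4, the plasma membrane syntaxin of most cells, by 0.39. Both lost the call when single libraries were left out. For VAMP8 the edgeR adjusted p was 0.0546 without nontarget replicate 1 and 0.0693 and 0.0502 without knockdown replicates 1 and 2. For STX4 it was 0.114, 0.0795 and 0.183 without nontarget replicates 1, 2 and 3 and 0.121 and 0.159 without knockdown replicates 1 and 2. Long-term, VAMP8 was at 16 CPM in both groups and STX4 at 60.2 and 62.9 CPM. The 40 tested genes nearest to VAMP8 had median log2 fold changes of 0.37 short-term and 0.64 long-term. For STX4 these medians were 0.12 and -0.06. What the regions contributed was not tested.

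**Figure D2:**
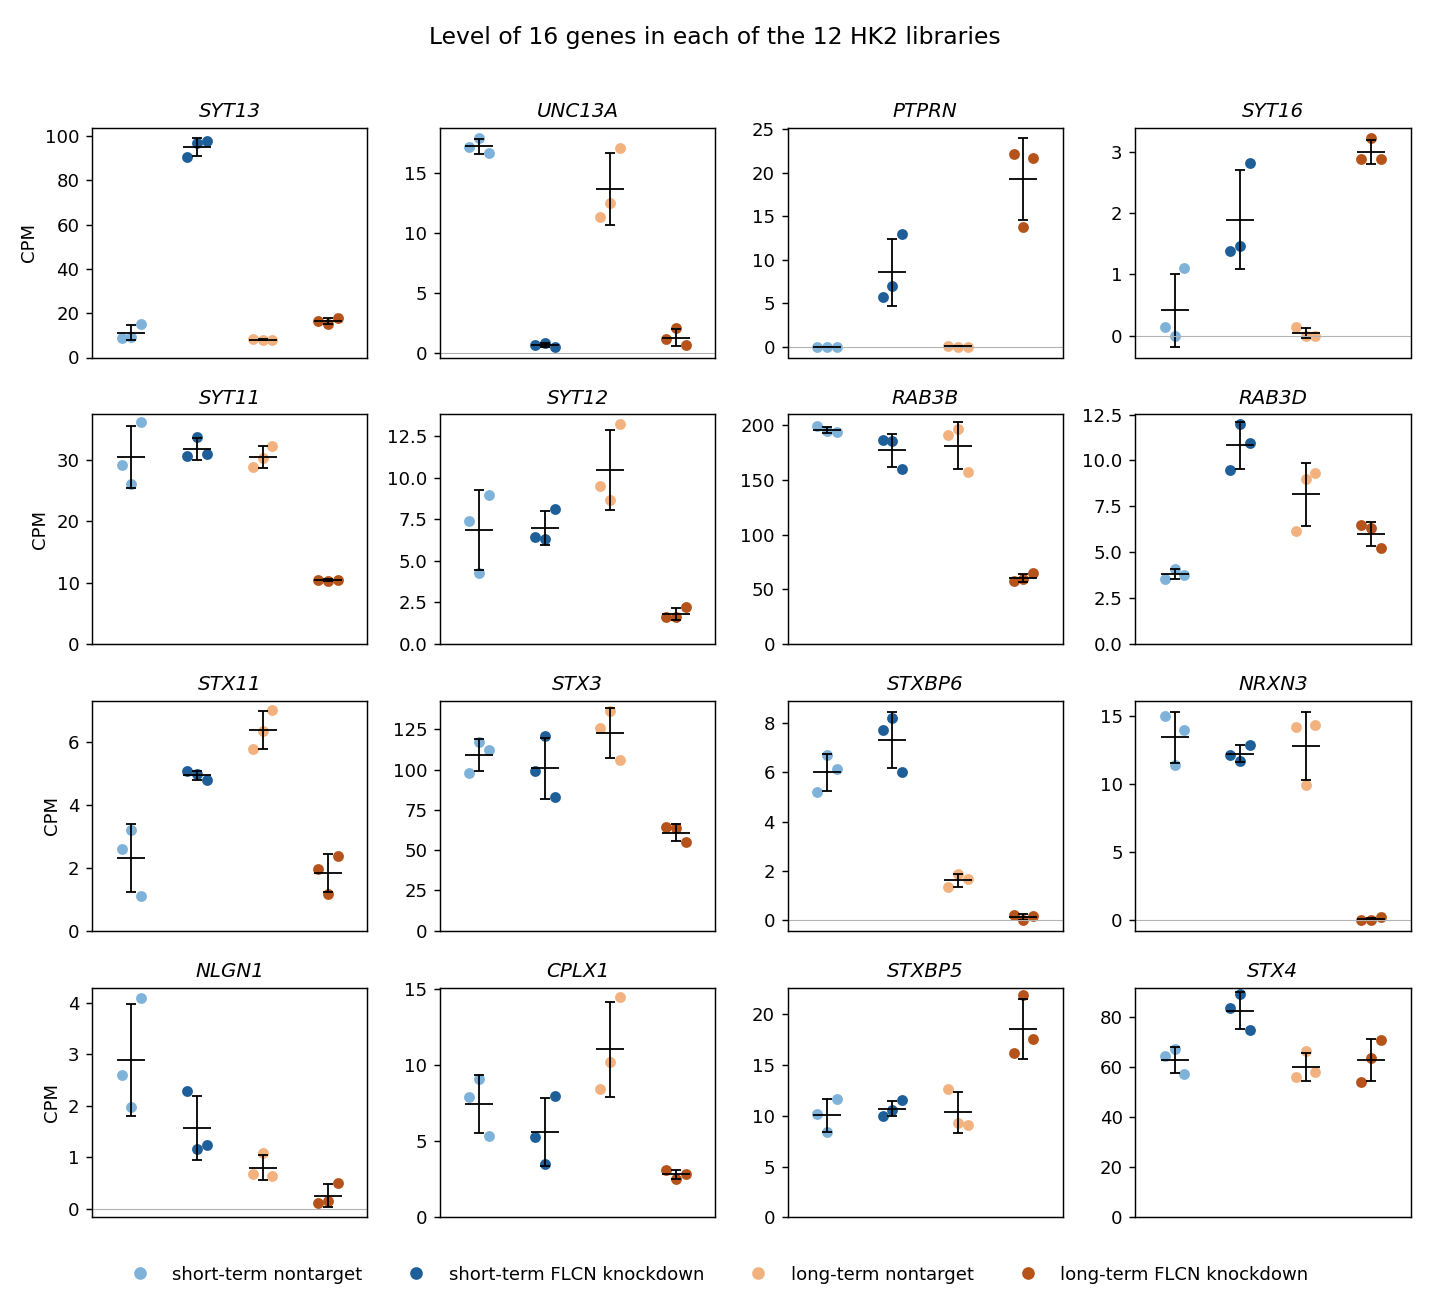
Level in CPM of 16 members in each of the 12 HK2 libraries (3 points per group, with the mean as a bar and the SD as error bars), on axes that include 0 and differ between genes. PTPRN and SYT16 were counted mainly in knockdown libraries, UNC13A was low in all 6 of them, and NRXN3, SYT11, SYT12, RAB3B and CPLX1 were low in the long-term knockdown libraries.

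After long-term FLCN knockdown 17 of the 42 tested members passed the threshold. Higher were 4, or 9.52% against 13.7% of all genes, and lower were 13, or 31.0% against 15.8%. Without SYT16 and NLGN1, 3 of 40 were higher (7.5%) and 13 lower (32.5%). The median log2 fold change of the 42 was -0.17. STX10, STXBP5, NLGN2 and SYT16 were higher, while the genes that fell included members of 7 families: NRXN3, STXBP6, SYT12, CPLX1, RAB3B, SYT11, STX11 and STX3 by 2-fold or more and VAMP1, STX2, STX7 and STX16 by less. Same-numbered libraries of the long-term groups deviated together, and with the replicate number as a block 20 members passed, the additional ones being UNC13D, STXBP2 (log2 fold change 0.42, edgeR adjusted p 0.0906 without and 0.0291 with the block) and SYT14 (-0.38, 0.129 and 0.0374). The shares of all genes above come from the fit without the block, so the 20 cannot be set against them.

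NRXN3, the neurexin that passed the filter on low counts, had 110, 75 and 89 counts in short-term nontarget and 96, 80 and 73 in short-term knockdown libraries, with no difference beyond the spread (log2 fold change with its SE, given so below, -0.14 ± 0.19, edgeR adjusted p 0.731). In long-term nontarget libraries it had 106, 64 and 111 counts, and in long-term knockdown libraries 0, 0 and 1. NRXN3 was lower there by a ratio of 277 (95% counting interval 49.4 to 10992; fitted log2 fold change -7.64, adjusted p 1.82e-09). It thus had counts at a similar level in 9 libraries and 1 count in all in the other 3. The gene spans chr14:78170373-79868290 on the plus strand and shares no exon base with another gene. For its 40 nearest neighbours among the genes tested the median long-term log2 fold change was -0.30. NRXN2 had 2 counts over the 12 libraries.

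Neuroligins bind neurexins from the other cell. NLGN2, known from inhibitory synapses, was at 59.7 ± 11.4 CPM in long-term nontarget and 79.0 ± 10.1 CPM in long-term knockdown libraries and rose by a log2 fold change of 0.40. That call was lost without nontarget replicate 1 or 2 (edgeR adjusted p 0.169 and 0.0968) and without knockdown replicate 2 or 3 (0.0787 and 0.129). The 40 tested genes nearest to NLGN2 had a median long-term log2 fold change of 0.26. NLGN1, known from excitatory synapses, had 5, 7 and 5 counts in long-term nontarget and 1, 1 and 3 in long-term knockdown libraries (adjusted p 0.0833).

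Among the syntaxin-binding proteins, STXBP6 (amisyn), which competes with VAMP proteins for binding to syntaxin, had 10, 12 and 13 counts in long-term nontarget libraries and 2, 0 and 1 in long-term knockdown libraries. The ratio was 11.5 (95% counting interval 3.63 to 58.5; fitted log2 fold change -3.37 ± 0.56, edgeR adjusted p 0.000179). In the short-term groups the counts were 38, 44 and 39 without and 61, 56 and 34 with knockdown (adjusted p 0.492), so the level was lower in long-term cells already without knockdown. STXBP5 (tomosyn), which occupies syntaxin in the place of a VAMP protein, went the other way, from 12.6, 9.29 and 9.06 CPM in long-term nontarget to 16.2, 21.9 and 17.5 CPM in long-term knockdown libraries, a log2 fold change of 0.84.

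The synaptotagmins SYT11 and SYT12 fell after long-term knockdown. SYT11, a synaptotagmin of lysosomes and endosomes that does not bind calcium, was at 28.8, 30.4 and 32.3 CPM in long-term nontarget and 10.5, 10.3 and 10.5 CPM in long-term knockdown libraries (log2 fold change -1.55 ± 0.14, edgeR adjusted p 3.20e-07), while all 6 short-term libraries were between 26.1 and 36.1 CPM. SYT12, which also lacks calcium binding, was at 9.51, 8.67 and 13.2 CPM without and 1.62, 1.61 and 2.20 CPM with long-term knockdown (log2 fold change -2.54, SE 0.30, adjusted p 4.21e-06). Its 6 short-term libraries were between 4.25 and 8.96 CPM, above all 3 long-term knockdown libraries. SYT1 did not pass the threshold in either knockdown comparison, with or without the block, and was at 13 and 15.8 CPM in the long-term groups.

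RAB3B, a RAB3 GTPase of endocrine and epithelial cells, was the most abundant of its family. In long-term nontarget libraries it was at 190.4, 196 and 157 CPM and in long-term knockdown libraries at 57.7, 59.3 and 64.8 CPM (log2 fold change -1.58 ± 0.11, edgeR adjusted p 8.86e-09). The 6 short-term libraries were at 159 to 199 CPM, and RAB3B did not differ beyond the spread between them (adjusted p 0.444). CPLX1, a complexin of brain synapses, was at 8.44, 10.2 and 14.5 CPM without and 3.12, 2.49 and 2.88 CPM with long-term knockdown (log2 fold change -1.95, SE 0.30, adjusted p 8.22e-05). Short-term, CPLX1 was at 7.93, 9.11 and 5.34 against 5.31, 3.51 and 7.96 CPM, which overlapped (adjusted p 0.397).

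Of the 13 tested syntaxins, 5 fell (38.5%, against 15.8% of all genes) and 1 rose (7.69%, against 13.7%) after long-term knockdown. STX3, the apical plasma membrane syntaxin of epithelia, was at 126, 136 and 106 CPM in long-term nontarget and 64.1, 63.7 and 55.0 CPM in long-term knockdown libraries (log2 fold change -1.01 ± 0.14, edgeR adjusted p 2.19e-05), with no overlap. STX2, a plasma membrane syntaxin, fell by -0.82, the endosomal syntaxin STX7 by -0.56 and STX16 of the trans-Golgi network by -0.37 on the log2 scale. The endosomal and Golgi syntaxin STX10 rose by a log2 fold change of 0.63. STX16 lost its call in 4 of the 6 fits without 1 library (adjusted p 0.0668 and 0.0590 without nontarget replicates 1 and 3, 0.0695 and 0.0540 without knockdown replicates 1 and 3), and it shares exon bases with the readthrough gene STX16-NPEPL1. VAMP1 fell by -0.94 on the log2 scale, with adjusted p of 0.0616 to 0.158 when any 1 library other than knockdown replicate 3 was left out and 0.136 with DESeq2. Exons of STX2, STX3, STXBP5 and VAMP1 also share bases with those of other genes.

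SNAP23, SNAP29 and SNAP47, which supply 2 helices to the fused complex outside neurons, and the neuronal SNAP25 did not pass the threshold in any of the 5 comparisons. SNAP23 was at 77.8, 74.8, 80.4 and 76.2 CPM in the 4 groups, short-term before long-term and nontarget before knockdown. VAMP2, VAMP3, VAMP4 and VAMP7 passed it in none either, with VAMP3 at 147, 139, 143 and 124 CPM. A p above the threshold does not show equal levels.

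**Figure D3:**
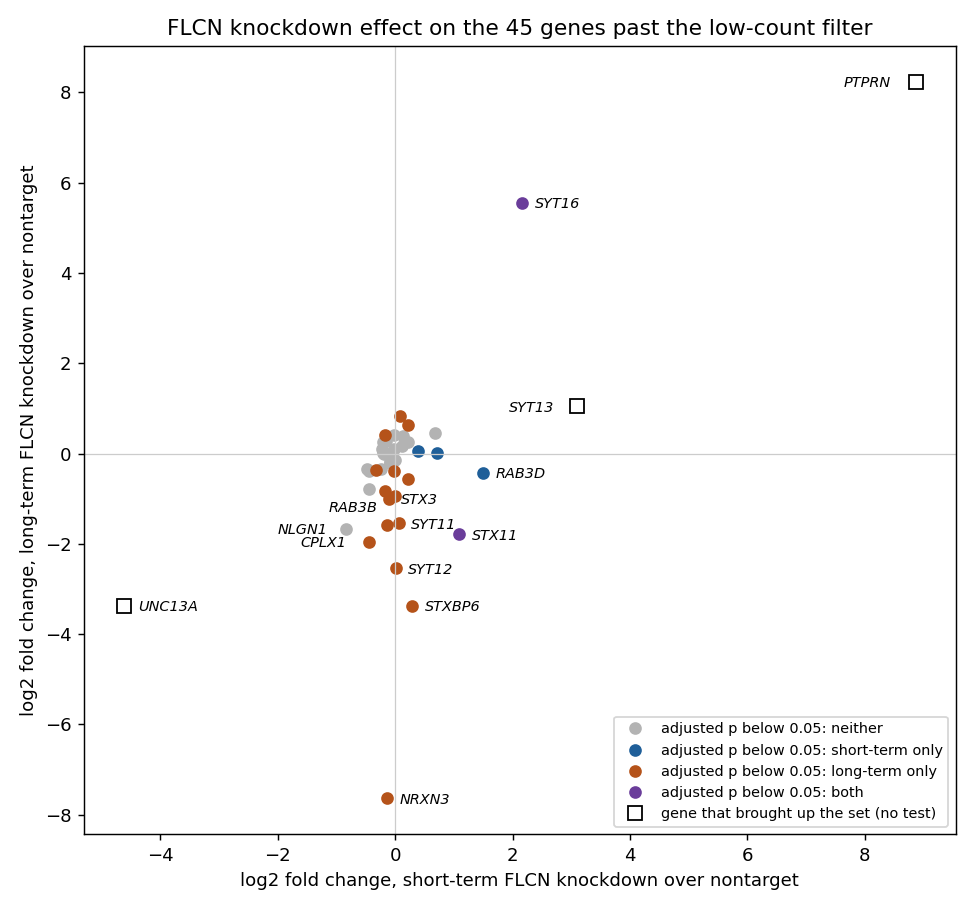
Log2 fold change of knockdown over nontarget cells for the 45 members past the low-count filter, short-term on the horizontal and long-term on the vertical axis, coloured by which comparison had an edgeR adjusted p below 0.05; open squares are the 3 genes by which the set was chosen and carry no test. NRXN3, STXBP6, SYT12, CPLX1, RAB3B and SYT11 lie near 0 on the short-term axis and below it on the long-term axis.

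The interaction of knockdown and culture time compares the long-term with the short-term knockdown effect. It was negative, that is, the long-term effect was below the short-term effect, at an edgeR adjusted p below 0.05 for 11 of the 42 tested members, or 26.2% against 8.43% of all genes, and positive for 0, against 4.98%. With the replicate number as a block it was negative for 12 and positive for 2: VAMP8 (-0.70, adjusted p 0.0187) was then negative too, and NLGN2 (0.59, 0.00497) and STXBP5 (0.75, 0.0433) were positive. The shares of all genes come from the edgeR fit without the block, and none are given for the other counts here. Same-numbered libraries deviated together in 3 of the 4 groups, short-term nontarget being the exception. At an unadjusted p below 0.05 it was positive for 4 members and negative for 12, and DESeq2 likewise called 0 positive and 11 negative. The difference in log2 fold change was -7.50 for NRXN3 (adjusted p 5.10e-08), -3.67 for STXBP6 (0.000444), -2.88 for STX11 (0.000166), -2.56 for SYT12 (0.000222), -1.93 for RAB3D (0.000173), -1.61 for SYT11 (1.78e-05), -1.51 for CPLX1 (0.0220), -1.44 for RAB3B (3.46e-06), -0.90 for STX3 (0.00351), -0.78 for STX7 (0.00698) and -0.66 for STX2 (0.0153). STX11 and RAB3D had risen short-term, and long-term STX11 fell while RAB3D did not pass the threshold. For the remaining 9 the short-term effect had not passed it. The call for CPLX1 was lost without short-term nontarget replicate 3, short-term knockdown replicate 3, long-term nontarget replicate 3 or long-term knockdown replicate 2 (adjusted p 0.0546, 0.0598, 0.0586 and 0.0580). This comparison shares its libraries with both knockdown comparisons.

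Culture time was also compared on its own. In nontarget cells, long-term against short-term, 2 of 42 were higher, or 4.76% against 3.17% of all genes, and 2 lower, or 4.76% against 4.38%. With the replicate number as a block, although the numbers did not pair these libraries, 5 were higher and 2 lower. The shares of all genes are those without the block. Without SYT16 and NLGN1, 2 of 40 were higher (5%) and 1 lower (2.5%). STX11 rose by a log2 fold change of 1.45 (SE 0.30, edgeR adjusted p 0.00466) and RAB3D by 1.09 (SE 0.22, adjusted p 0.00362), the values of each library being those given above. STXBP6 fell by -1.88 (SE 0.28, adjusted p 0.000367) on the log2 scale. NLGN1 had 19, 13 and 26 counts in short-term and 5, 7 and 5 in long-term nontarget libraries, which did not overlap, and the fit gave a log2 fold change of -1.84 (SE 0.44, edgeR adjusted p 0.0135). It reached the low-count filter's level in the 3 short-term nontarget libraries, in 1 short-term knockdown library and in no long-term library, so it could be tested only because it was high in short-term cells, and its p is no independent support for a difference. Its call was lost without short-term replicate 3 (adjusted p 0.0833) or long-term replicate 1 or 3 (0.0559 and 0.0636).

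Between long-term and short-term knockdown cells 3 of the 42 tested members were higher, or 7.14% against 11.5% of all genes, and 13 lower, or 31.0% against 15.2%. Without SYT16 and NLGN1 there were 3 higher and 12 lower of 40 (7.5% and 30%), since NLGN1 passed the low-count filter only through short-term libraries. Those higher were NLGN2 (log2 fold change 0.93), STXBP5 (0.79) and STX10 (0.42). Those lower were NRXN3 (-7.56), STXBP6 (-5.54), NLGN1 (-2.68), SYT12 (-1.94), SYT11 (-1.61), RAB3B (-1.55), STX11 (-1.43), CPLX1 (-0.95), RAB3D (-0.83), VAMP8 (-0.81), STX3 (-0.73), STX7 (-0.70) and STX4 (-0.40). The value for NRXN3 rests on 249 counts against 1 (ratio 261, 95% counting interval 46.4 to 10344), and that for STXBP6 on 151 counts against 3 (ratio 52.7, interval 17.7 to 259). The call of CPLX1 was lost without short-term replicate 1 or 3 or any 1 long-term library (edgeR adjusted p up to 0.185). Same-numbered libraries deviated together here too, and with the replicate number as a block SYT1 (log2 fold change 0.47, adjusted p 0.0556 without and 0.0247 with the block), STXBP4 (0.45, 0.0682 and 0.0424) and STX2 (-0.31, 0.0737 and 0.0487) also passed. That of STX10 was lost without short-term replicate 2 or 3 or long-term replicate 3 (up to 0.190), and that of STX4 without short-term replicate 1 or 2 or long-term replicate 1 (up to 0.114).

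**Figure D4:**
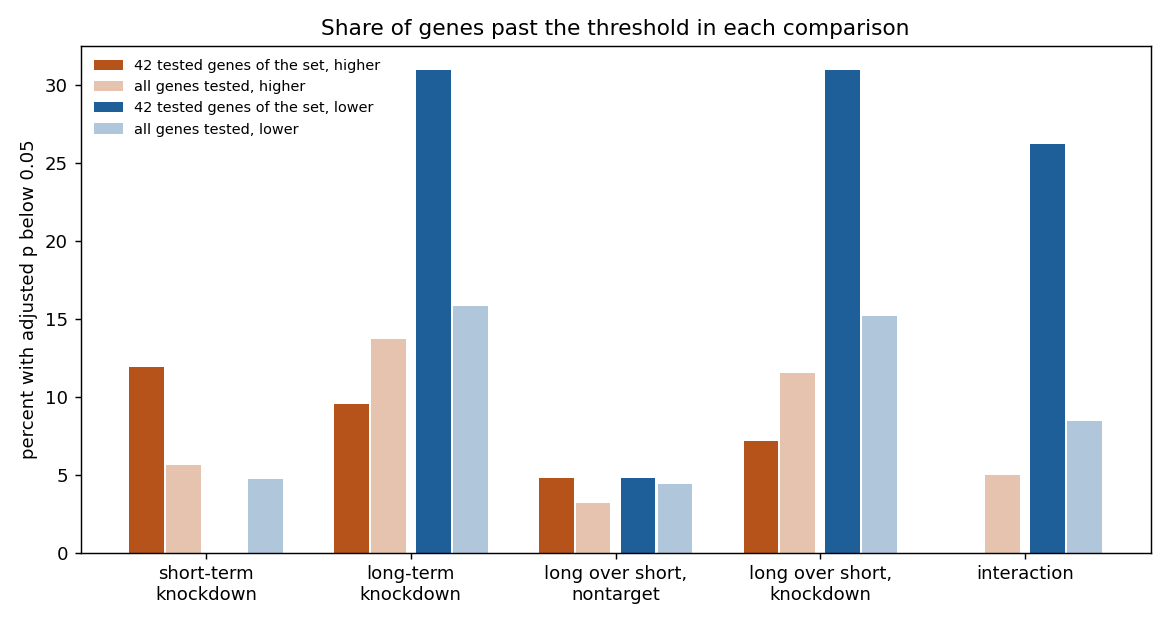
Percent of the 42 tested members (solid bars) and of all 13959 genes tested (pale bars) with an edgeR adjusted p below 0.05, higher and lower, in the 5 comparisons. The members' share that was lower stood above that of all genes in the long-term knockdown, the long-over-short knockdown and the interaction comparison, which share libraries, and, without the replicate block, none of the 42 was higher in the interaction or lower after short-term knockdown.

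Genes of the wider pathway, in lists that do not follow from the family names, were past the threshold in both directions. Their counts stand beside 5.62% of all genes higher and 4.71% lower short-term and 13.7% higher and 15.8% lower long-term. These shares come from the fit without the replicate block. Of 37 tested genes of other exocytosis machinery 3 were lower after short-term knockdown (8.11%), and 1 was higher (2.70%) and 8 lower (21.6%) after long-term knockdown, with medians of -0.11 and -0.10. With the replicate block 3 of them were higher long-term; for these and the marker lists, long-term block counts are given here where they differ by over 1.5 times. Short-term block counts, from groups whose numbers did not pair, are given with the alternatives. Here SYTL3, a synaptotagmin-like protein that binds RAB27, was at 14.6 ± 3.20 CPM in long-term nontarget and 1.89 ± 0.190 CPM in long-term knockdown cells (log2 fold change -2.91), while SYN1, which tethers synaptic vesicles to actin, was at 0.637 and 4.20 CPM (2.64). Of 9 tested exocyst subunits, which tether vesicles at the plasma membrane, 1 was higher and 1 lower short-term (11.1% each) and 2 higher (22.2%) and 1 lower long-term. Of 12 endosomal and Golgi SNAREs outside the 11 families 1 was higher short-term (8.33%) and 2 were higher (16.7%) and 1 lower (8.33%) long-term.

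Of 5 tested genes for cargo and processing enzymes of dense core granules, the compartment in which PTPRN resides, 1 was higher after short-term knockdown, and after long-term knockdown 2 were higher and 1 was lower. The granule peptide precursor VGF fell long-term by a log2 fold change of -2.16 (17.7 ± 10.4 against 4.02 ± 1.90 CPM, edgeR adjusted p 0.0246), and CHGA, the granule protein chromogranin A, was at or near 0 in every group. Of 26 tested genes of other synaptic adhesion, 1 was higher (3.85%, against 5.62% of all genes) and 7 lower (26.9%, against 4.71%) short-term, and 5 were higher (19.2%, against 13.7%) and 8 lower (30.8%, against 15.8%) long-term. The latrophilins ADGRL2 and ADGRL3, adhesion receptors that form complexes with teneurins and FLRT proteins, had long-term log2 fold changes of 3.76 and 3.95, and ADGRL2 was at 12.4 CPM in nontarget and 169 CPM in knockdown cells. FLRT2 and IL1RAPL1 had long-term log2 fold changes of -2.07 and -2.34.

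Markers of cell type moved as well, and their part in the results above was not tested. As above, 5.62% of all genes were higher and 4.71% lower short-term, and 13.7% higher and 15.8% lower long-term. Of 5 tested neuron and neuroendocrine markers, among them the member SNAP25, 1 was higher short-term, and 2 were higher and 1 lower long-term (2 lower with the replicate block). NEFM, a neurofilament subunit, had 0, 0 and 1 counts in short-term nontarget and 15, 16 and 10 in short-term knockdown libraries. In the long-term groups NEFM had 0, 0 and 2 against 13, 9 and 9 counts. NEFM thus passed the low-count filter through knockdown libraries alone, and its p-values are no independent support for a difference. Of 5 tested proximal tubule markers 3 were higher short-term and 2 higher and 1 lower long-term. Of 5 tested epithelial markers, whose short-term median was 0.36, 0 passed the threshold short-term and 2 were lower long-term. Of 7 tested mesenchymal markers 1 was higher and 1 lower short-term and 4 were lower long-term (with the block also 1 higher). The 3 mesenchymal genes that changed most were FN1 (log2 fold change -2.52), PDGFRB (-3.56) and ACTA2 (-2.12). The summed level of the 10 mesenchymal markers was 2532 to 3219 CPM in long-term nontarget and 1372 to 1586 CPM in long-term knockdown libraries. Short-term the order was the opposite, with 2647 to 3146 CPM in nontarget and 3617 to 3997 CPM in knockdown libraries. The members' summed level was 1499 to 1629 CPM in long-term nontarget and 1314 to 1338 CPM in long-term knockdown libraries, against 1534 to 1562 and 1574 to 1654 CPM in the short-term nontarget and knockdown libraries. In the interaction 3 of 5 epithelial and 3 of 7 mesenchymal markers were negative and 0 positive, against 8.43% and 4.98% of all genes. The neuron and proximal tubule lists each had 1 positive and 1 negative. Between long-term and short-term knockdown cells 3 epithelial and 4 mesenchymal markers were lower and 1 mesenchymal higher (all genes 15.2% and 11.5%). In libraries made from whole cultures, fewer cells that express a gene and less RNA per cell cannot be told apart.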

How the data were processed

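RNA of 12 HK2 libraries (4 groups of 3) was analysed from the deposited counts of reads per gene, which per the labels and the methods the authors made from TruSeq v2 libraries, a kit that does not mark strand, with fastp, STAR and featureCounts on GRCh38. Annotation release, strand setting and versions are not given in the sources used here. Deposited normalized values, the authors' DESeq2-scaled counts rounded to whole numbers (used as a score), served only as a check. The deposited series table and library files differed in 0 count values.

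The members and gene lists were chosen with earlier results of these data known. Gene IDs (58288) were matched to GENCODE 29, of which 55661 had the same version, 2364 another and 263 none (0.0126% of counts). Start-site sequences came from RefSeq, with 56 of 70 symbols matched.

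Counts were fitted with edgeR 4.0.16 in R 4.3.3 (filterByExpr, leaving 13959 genes, TMM, robust quasi-likelihood test, 1 term per group over all 12 libraries, the package's default prior count). Two-sided p-values were adjusted by Benjamini-Hochberg over all genes tested. The biological coefficient of variation was 12.0%, and chi-square per degree of freedom between replicates was 2.15 to 13.0, above counting error. Counts of members called leave out SYT13, UNC13A and PTPRN. Replicate numbers come from the labels, which do not say that they mark a shared batch. Deviations of same-numbered libraries from their group means had correlations of 0.123 to 0.458 between the long-term groups and 0.223 to 0.455 between the knockdown groups, all above 0.1, so these were taken as paired. They were 0.0172 to 0.111 between the short-term and -0.0340 to 0.0767 between the nontarget groups, which were not. Replicates are labelled biological, and p-values measure the spread between these libraries. SEs were taken as the absolute log2 fold change over the root of the F statistic. Ratios against 1 to 3 counts, except that of PTPRN, carry an exact 95% interval, and bounds against 0 use a floor of 3 counts per group. Intervals and floors cover counting error only. Scripts were tested on simulated data.

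Named were SYT13, UNC13A and PTPRN, members past the threshold (every library at a log2 fold change of at least 1), the leading member of each family per kilobase, FLCN, and genes of 9 other lists past the threshold with a log2 fold change of at least 2 in a knockdown comparison. Others named were chosen after their values were seen, and some genes that meet the rule are not reported here. Alternatives were RLE factors, DESeq2 1.42.0, no filter, a mean of at least 10 CPM, the library files, a replicate block, only the groups compared, a fold of 2.5, and leaving out each library.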

Additional observations from a re-analysis of the deposited data

Results flagged for a closer look

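The effect of FLCN knockdown differed between long-term and short-term cells for 11 of the 42 tested members, by the interaction term of the edgeR model over all 13959 genes tested. SYT13, UNC13A and PTPRN, for which no test is given, are left out. The long-term minus the short-term log2 fold change was -7.50 for NRXN3, -3.67 for STXBP6, -2.88 for STX11, -2.56 for SYT12, -1.93 for RAB3D, -1.61 for SYT11, -1.51 for CPLX1, -1.44 for RAB3B, -0.90 for STX3, -0.78 for STX7 and -0.66 for STX2. All 11 were negative. With the replicate block 14 members passed, 12 negative and 2 positive. STX11 and RAB3D had risen after short-term knockdown, and the other 9 had not passed the threshold there. The values for NRXN3 and STXBP6 rest on 1 and 3 counts in the long-term knockdown group. The clone of each library is not stated, so a difference between clones and a difference in time cannot be told apart.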

How the results depend on the processing

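The number of the 42 tested members past the threshold was 5 after short-term and 17 after long-term knockdown, 4 for culture time in nontarget cells, 16 for culture time in knockdown cells and 11 for the interaction. Shares of all genes are given above for this fit alone. The counts below compare settings among the members and cannot be set against all genes. A fold limit of 2.5 left 2, 8 and 7 members in the short-term, long-term and knockdown culture-time comparisons. A minimum mean of 10 CPM left 2, 10, 0, 10 and 5 in the 5 comparisons in the order above, since fewer members were tested; at 10 CPM the 4 members called in nontarget cells were all below the limit. With the replicate block the numbers were 7, 20, 7, 19 and 14, the interaction then being positive for 2 and negative for 12, and the block ended no call. Over all 4 groups, 10 of 18 same-numbered pairs had a correlation above 0.1, with all 9 pairs among the groups other than short-term nontarget above it, and 10 of 12 libraries were closest to their own number. The libraries of the short-term knockdown and nontarget culture-time comparisons were taken to share only a number, and those of the interaction are paired in part. The block added UNC13D and SYT14 to the short-term knockdown calls and NLGN2, SYT12 and STX2 to the nontarget culture-time calls. Short-term, the block raised the number of epithelial markers called higher from 0 to 4 and that of genes called lower from 0 to 2 for dense core granules, from 1 to 2 for mesenchymal markers and from 0 to 1 for endosomal and Golgi SNAREs. Long-term, the block gave 6 higher and 11 lower genes of other synaptic adhesion, and 3 higher each of endosomal and Golgi SNAREs and proximal tubule markers. Not counting SYT16 and NLGN1, an alternative chosen after seeing the data, gave 4, 16, 3, 15 and 11 members. Leaving out 1 library at a time gave 1 to 4, 14 to 17, 3 to 4, 14 to 15 and 10 to 12 members. Over single members and alternatives, 829 values kept direction and side of the threshold, 64 lost the call, 16 moved and 3 reversed. The reversed values were those of PTPRN, which is at or near 0 in nontarget cells: its culture-time value in nontarget cells (1.84) was 0 to 2.31 and its interaction (-0.64) was -1.12 to 1.20 when 1 library was left out, the sign changing without long-term nontarget replicate 1, and the interaction was 0.31 with DESeq2. RLE factors moved the median of all genes by at most 0.005 in size, and member levels by factors of 0.988 to 1.00. The 26 members below the filter could not be assessed at this depth.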
